A study of Mus musculus with 8 samples.

Results

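Replication initiation sites (ISs) of mouse chromosomes 4 and 5 were compared between the distal and the proximal part of each chromosome. The divisions lay at position 103000000 of chromosome 4 and 107770000 of chromosome 5 in mm9, where the proximal part is the one next to the centromere. These positions were chosen on the measured fold changes and on gene density, so the fold changes and gene numbers of the parts are given below as a description. The merged table of Rif1KO and WT cells held 4642 ISs on both chromosomes among 39116 in all. These were 1014 proximal and 1077 distal ISs on chromosome 4, and 1400 proximal and 1151 distal ISs on chromosome 5. The merged table of the hairpin-expressing cells held 16288 of 129937 ISs there, with 4941 and 2717 on chromosome 4 and 5455 and 3175 on chromosome 5.

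ISs were mapped by short nascent strand sequencing (SNS-seq), which recovers short leading strands that an RNA primer protects from exonuclease digestion, in CH12 cells, a clonal mouse B cell lymphoma line grown with IL4, CD40 and TGF beta stimulation. The 8 libraries were 2 of WT cells, 2 of Rif1KO cells, 2 of Rif1KO cells with a hairpin against LacZ as the infection control (Rif1KO_shLacZ) and 2 of Rif1KO cells with a hairpin against Mcm6 (Rif1KO_shMcm6). Both hairpin groups therefore lacked RIF1, and the RIF1-deficient cells were clonal derivatives of the line. The tables gave 1 value per IS and condition with both libraries pooled, so no replicate error could be computed for any value here, and no difference was tested against the spread between replicates.

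Replication begins at many origins that are loaded with the MCM2-7 helicase in G1 and fire at different times in S phase. Gene-dense, GC-rich chromatin is generally replicated early and gene-poor, AT-rich chromatin late. RIF1 is a chromatin-bound protein best known for setting this timing, and MCM6 is a subunit of the helicase. Mouse chromosomes 4 and 5 each have a gene-poor stretch on the centromere side and a gene-rich stretch on the other, which places both kinds of chromatin on 1 molecule. The comparisons ask how the use and the number of ISs in these stretches changed when RIF1 was lost and when MCM6 was then depleted.

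The distal parts were shorter and richer in genes. The distal part of chromosome 4 measured 52.63 Mb with 786 protein-coding genes, or 14.93 per Mb, against 103.0 Mb with 569 genes, or 5.52 per Mb, in its proximal part. The distal part of chromosome 5 measured 44.77 Mb with 625 genes, or 13.96 per Mb, against 107.8 Mb with 684 genes, or 6.35 per Mb. GC content was 46.01% against 40.35% on chromosome 4 and 46.68% against 40.77% on chromosome 5. The typical distal IS of the Rif1KO and WT table had a median of 15 protein-coding genes within 500 kb on chromosome 4 and 14 on chromosome 5, against 6 and 7 for proximal ISs.

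Runs of G are a common feature of mammalian ISs, so the stretch around the central run is shown for the most used IS of WT cells in each part, followed by the lowest fold change of the distal parts and the highest of the proximal parts after RIF1 loss among ISs at or above the median density. All are read 5′ to 3′ from the mm9 (NCBIM37) sequence. Capitals mark 1 match to the G-run motif, 4 runs of 3 or more G separated by 1 to 7 bases of any kind, searched so that a G may itself be a separator within a longer run, on both strands with the strand of the match shown. The windows lie at chr4:3091310-3091428 (plus), chr4:129230094-129230213 (plus), chr5:73882823-73882941 (plus), chr5:111988260-111988379 (plus), chr4:115612368-115612486 (minus), chr5:108797145-108797264 (minus), chr4:7791482-7791601 (minus) and chr5:10080102-10080220 (minus), in the order printed.
chromosome 4 proximal, most used: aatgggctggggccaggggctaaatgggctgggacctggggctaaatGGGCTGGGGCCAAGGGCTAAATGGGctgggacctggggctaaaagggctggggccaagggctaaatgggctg
chromosome 4 distal, most used: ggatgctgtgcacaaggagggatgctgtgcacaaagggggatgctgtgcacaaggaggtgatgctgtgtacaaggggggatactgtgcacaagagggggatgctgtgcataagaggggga
chromosome 5 proximal, most used: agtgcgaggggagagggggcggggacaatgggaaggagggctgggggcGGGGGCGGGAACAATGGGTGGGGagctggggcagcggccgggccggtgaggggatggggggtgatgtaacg
chromosome 5 distal, most used: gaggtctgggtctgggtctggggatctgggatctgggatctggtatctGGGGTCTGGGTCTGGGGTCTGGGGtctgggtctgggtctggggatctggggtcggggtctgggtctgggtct
chromosome 4 distal, lowest after RIF1 loss: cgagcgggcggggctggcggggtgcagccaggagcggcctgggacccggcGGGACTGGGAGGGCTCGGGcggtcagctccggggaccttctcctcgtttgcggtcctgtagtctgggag
chromosome 5 distal, lowest after RIF1 loss: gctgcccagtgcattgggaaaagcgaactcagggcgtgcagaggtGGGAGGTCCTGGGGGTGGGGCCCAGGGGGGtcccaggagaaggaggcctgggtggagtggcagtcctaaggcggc
chromosome 4 proximal, highest after RIF1 loss: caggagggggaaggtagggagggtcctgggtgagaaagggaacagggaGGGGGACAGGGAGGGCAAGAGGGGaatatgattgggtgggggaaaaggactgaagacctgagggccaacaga
chromosome 5 proximal, highest after RIF1 loss: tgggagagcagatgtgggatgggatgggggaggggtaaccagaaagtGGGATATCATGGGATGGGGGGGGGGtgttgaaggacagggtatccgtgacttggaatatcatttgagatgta

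The most used distal IS of chromosome 4, an intronic IS of Lck, a kinase gene of T cell receptor signalling, has no match to the motif in its whole length, although its sequence is a G-rich tandem repeat. The most used ISs of chromosome 4 proximal and chromosome 5 distal are tandem repeats with 26 matches each. The motif was present in 78.4% of proximal and 76.6% of distal ISs of chromosome 4 (95% Wilson intervals 75.8 to 80.8 and 74.0 to 79.0), and in 76.1% and 81.3% of those of chromosome 5 (73.8 to 78.3 and 79.0 to 83.5). By comparison, 7.61%, 10.9%, 8.01% and 11.7% of all 500 bp windows of the 4 parts held it, in the same order, while the median IS was 422 to 466 bp long. The interval of the distal share overlapped that of the proximal share on chromosome 4 and lay above it on chromosome 5.

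The distal ISs were more GC-rich and more often at promoters. In the Rif1KO and WT table their median GC content was 52.6% on chromosome 4 and 52.5% on chromosome 5, against 44.4% and 45.6% for proximal ISs. Over both chromosomes the difference was 7.53 percentage points (95% interval of the difference of medians 7.05 to 8.01). Promoter ISs, those within 1 kb of an annotated start (TSS) of any protein-coding gene, were 205 of 2228 distal ISs (9.20%) and 134 of 2414 proximal ISs (5.55%). ISs inside introns made up 37.6% and 38.3% of the distal parts and 28.3% and 30.4% of the proximal parts, and intergenic ISs 46.2% and 44.1% against 62.2% and 61.9%. The intervals on medians and shares take each IS as independent. ISs share libraries and neighbourhoods, so these intervals are too narrow. They reflect the spread among ISs and hold no error between replicates. The counting SE given below for single ISs covers counting error only, and the reads may include PCR copies.

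IS density in log2 RPM, the reads of an IS scaled to the summed reads of all ISs, was higher in the distal parts in every condition. The median WT density was 4.60 in chromosome 4 distal and 4.30 in chromosome 4 proximal, and 4.61 and 4.36 in the corresponding parts of chromosome 5. Over both chromosomes, distal minus proximal was 0.29 in WT (0.24 to 0.32) and 0.16 in Rif1KO (0.11 to 0.20). In the hairpin table the difference was 0.20 in Rif1KO_shLacZ (0.17 to 0.23) and 0.15 in Rif1KO_shMcm6 (0.12 to 0.18). Per kb of IS, which takes out the greater length of distal ISs, the differences were 0.16 in WT and 0.038 in Rif1KO.

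After RIF1 loss, distal ISs had lower and proximal ISs higher fold changes. The median log2 fold change, Rif1KO minus WT, was -0.072 in chromosome 4 distal (-0.088 to -0.058) and -0.068 in chromosome 5 distal (-0.087 to -0.052). It was 0.057 in chromosome 4 proximal (0.045 to 0.075) and 0.040 in chromosome 5 proximal (0.025 to 0.054), beside 0.015 over the whole table. The distal minus proximal difference was -0.13 on chromosome 4 (-0.15 to -0.11) and -0.11 on chromosome 5 (-0.13 to -0.087). Fold changes below 0 were found at 64.1% and 64.8% of distal ISs, against 38.4% and 43.6% of proximal ISs. The distal parts of chromosomes 4 and 5 had nearly equal spreads, with 5th percentiles of -0.50 and -0.47 and 95th percentiles of 0.28 and 0.29.

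**Figure D1:**
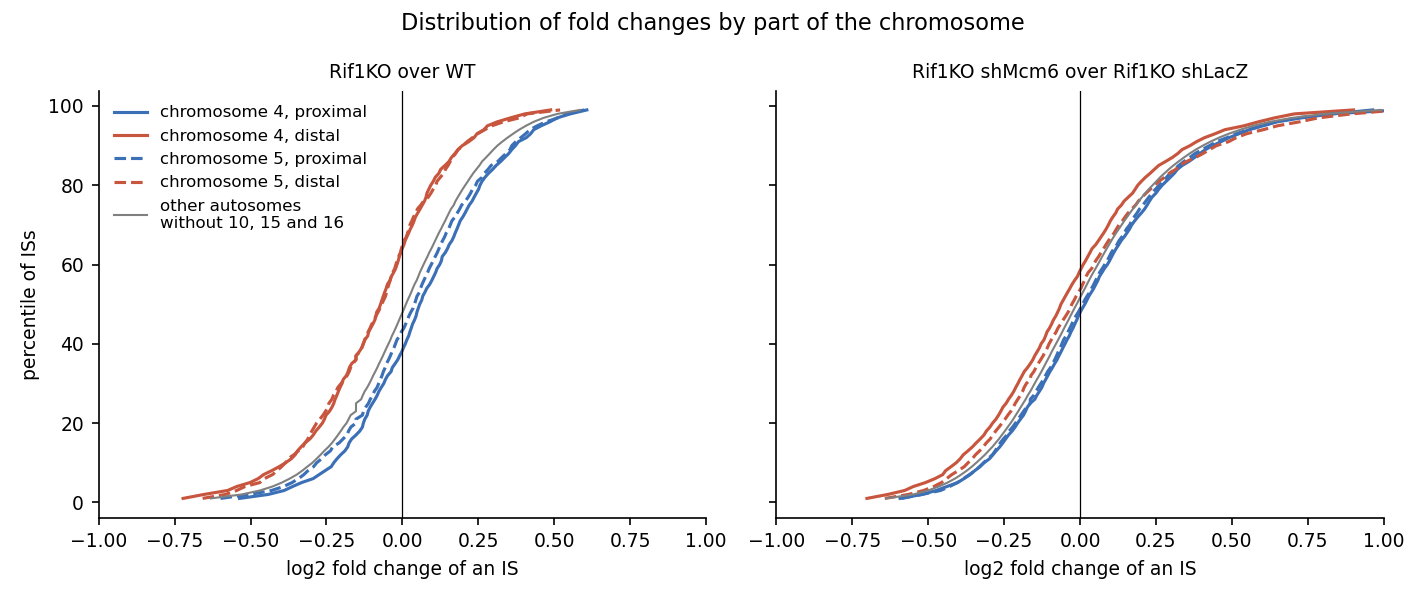
Percentile of ISs (y axis, percentile of the ISs of each group) against the log2 fold change of an IS (x axis) after RIF1 loss (left) and after MCM6 depletion in RIF1-deficient cells (right), for the 4 chromosome parts and the other autosomes without 10, 15 and 16. After RIF1 loss both distal curves lie left of both proximal curves over most of their range, with medians of -0.072 and -0.068 against 0.057 and 0.040, and after MCM6 depletion the curves lie closer together.

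These shifts were small beside the error of a single IS. The SD of fold changes within a part was 0.24 to 0.25, and the median counting error of 1 fold change was 0.22 to 0.24, with medians of 66 to 87 pooled reads per IS and condition. The shift could therefore be seen over many ISs and not at most single ones. Restricted to ISs called in both conditions, the difference was -0.085 on chromosome 4 (-0.11 to -0.061) and -0.054 on chromosome 5 (-0.087 to -0.030). Peaks were called with no input library, so a difference in DNA copy number and one in initiation cannot be told apart. The chromosome medians of 10, 15 and 16 stood apart in this comparison (-0.36, 0.16 and 0.33), while chromosomes 4 and 5 as a whole had medians of -0.0094 and -0.017.

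In bins of 5 Mb counted from the division, the sign of the median mostly followed the parts. Fold changes placed the division, so the bins are a description and no separate support. Below 0 were 10 of 11 distal bins of chromosome 4 and 8 of 9 of chromosome 5. Above 0 were 17 of 20 proximal bins of chromosome 4 and 14 of 21 of chromosome 5. The lowest bin of chromosome 4 was 30 to 35 Mb distal of the division, with a median of -0.18 over 93 ISs (-0.22 to -0.11), and its highest was 85 to 90 Mb proximal, with 0.21 over 52 ISs (0.11 to 0.31). On chromosome 5 the lowest bin was also 30 to 35 Mb distal (-0.13, 110 ISs) and the highest 55 to 60 Mb proximal (0.15, 34 ISs). On chromosome 4 the bins with the sign of the other side also differed in gene number. The single distal bin above 0 on chromosome 4, 5 to 10 Mb from the division, had a median of 8 genes within 500 kb and 43.1% GC, the lowest GC of the 11. The 3 proximal bins below 0 had 13, 15 and 16.5 genes, more than any other proximal bin. On chromosome 5 the single distal bin above 0, 20 to 25 Mb away, had the fewest genes of its side (7), while the 7 proximal bins below 0 had 9 to 13 genes and the bin with the most, 13.5, lay at 0.00022.

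**Figure D2:**
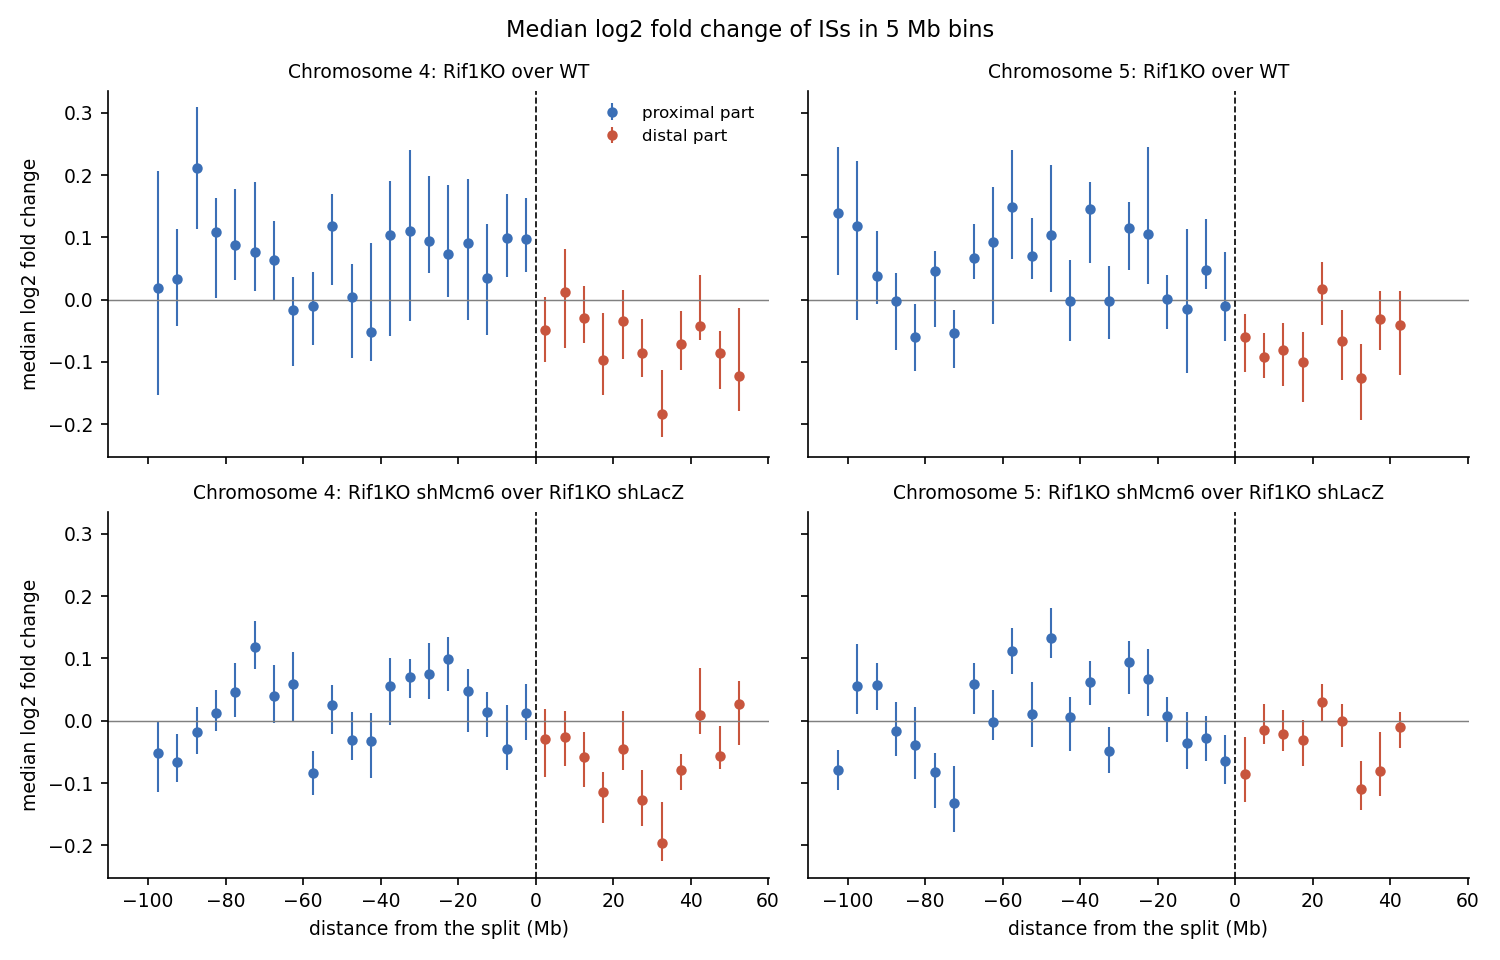
Median log2 fold change of the ISs in 5 Mb bins (y axis) against the distance of the bin from the division in Mb (x axis, negative towards the centromere), with 95% intervals of the median, for both chromosomes after RIF1 loss (top) and MCM6 depletion (bottom). After RIF1 loss the medians run from -0.18 to 0.011 in the distal bins of chromosome 4 and from -0.052 to 0.21 in its proximal bins, and the lowest bin of both comparisons on chromosome 4 is the same.

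The ISs next to the division are given as a description, since fold changes placed it. With the division of chromosome 5 moved by 5 Mb to either side the difference between the parts was -0.107 and -0.098. The 10 nearest ISs on the distal side of chromosome 5 had fold changes of -0.54 to 0.046, with a median of -0.21 and 9 below 0, all within 0.48 Mb. The 10 nearest on its proximal side ran from -0.17 to 0.54, with a median of 0.077 and 4 below 0. On chromosome 4 the medians were -0.068 and 0.14, with 6 of 10 and 3 of 10 below 0. The closest distal IS of chromosome 5, in a coding exon of Brdt, a testis bromodomain gene (chr5:107788970-107789314), went from 57 to 46 reads (-0.46 ± 0.29 counting SE). The closest proximal IS, 4.3 kb from the TSS of the same gene, went from 66 to 80 reads (0.12 ± 0.24). On chromosome 4 the closest distal IS went from 80 to 73 reads and the closest proximal one, at Wdr78, from 39 to 56. None of these 4 differences exceeded 2 counting errors.

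The number of genes around an IS went with its fold change on both chromosomes and on the others. Across ISs, Spearman's correlation between fold change and the number of protein-coding genes within 500 kb was -0.34 over the 2091 ISs of chromosome 4. This was the most negative of the 19 autosomes, followed by chromosomes 11 (-0.329) and 10 (-0.305). Over the 2551 ISs of chromosome 5 it was -0.29, rank 5 of the 19. ISs share libraries and neighbourhoods, so these are descriptions. Within the parts the correlation was -0.25 and -0.21 on chromosome 4 and -0.26 and -0.15 on chromosome 5, proximal then distal. Spearman's correlation of fold change with position was -0.28 and -0.20 along the whole chromosomes, but -0.081 to 0.059 within the 4 parts. The placing of the division on fold changes bears on this contrast, and nothing is read from it.

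Among ISs with alike neighbourhoods the difference between the parts was mostly below 0. Of the gene-number classes it was largest at 0 to 2 genes, with 42 distal ISs on chromosome 4 and 58 on chromosome 5. Fold changes and gene density placed the division, so these values are a description. Among ISs with 0 to 2 genes within 500 kb, the median was 0.028 in chromosome 4 distal and 0.16 in chromosome 4 proximal, and 0.020 and 0.13 in the parts of chromosome 5. Among those with 11 to 20 genes it was -0.10 and -0.024 on chromosome 4 and -0.071 and -0.025 on chromosome 5. Of 5 gene-number classes, distal minus proximal was below 0 in 5 on chromosome 4 (-0.13 to -0.057) and in 4 on chromosome 5, where the class over 20 genes gave 0.0032. It was below 0 at low, middle and high GC content (-0.10 to -0.044) and in promoters, exons, introns and intergenic sequence (-0.17 to -0.034). With the trends of the whole table on GC content and gene number both removed, the difference that remained was -0.022 on each chromosome. Its intervals were -0.046 to -0.00033 on chromosome 4 and -0.040 to -0.0012 on chromosome 5. Before removal it was -0.13 and -0.11.

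**Figure D3:**
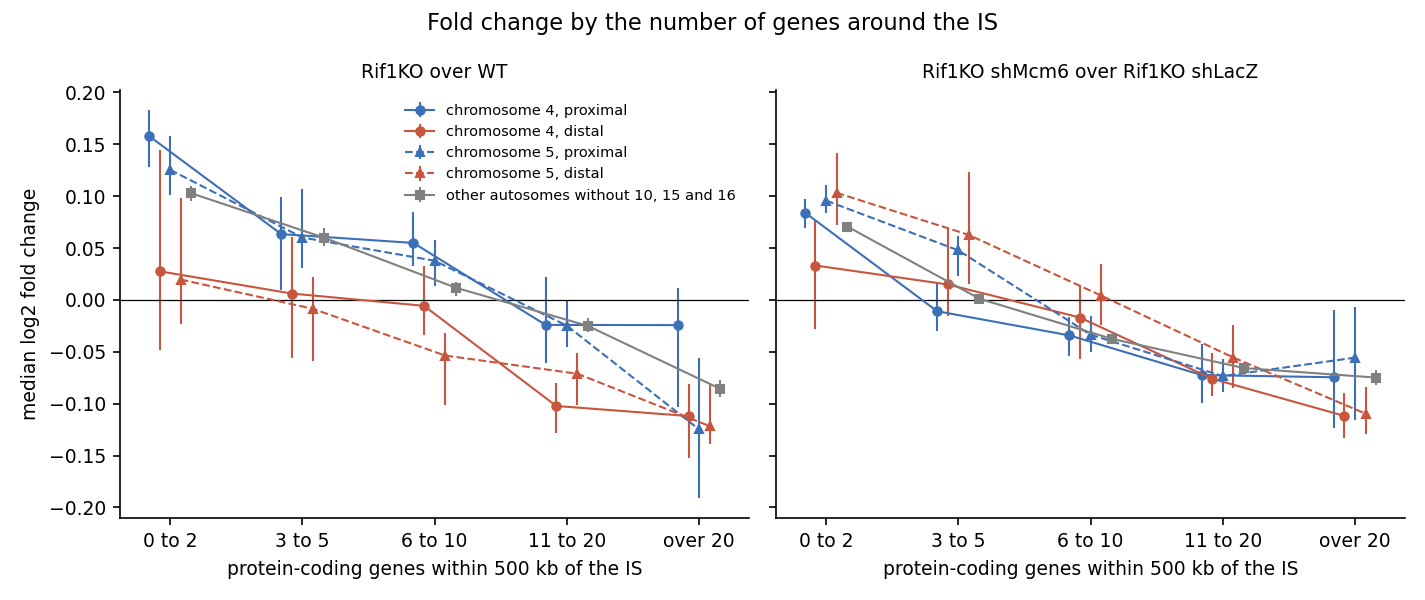
Median log2 fold change (y axis) of ISs grouped by the number of protein-coding genes within 500 kb (x axis), with 95% intervals of the median, for the 4 parts and the other autosomes without 10, 15 and 16. After RIF1 loss (left) the distal ISs with 0 to 2 genes have medians of 0.028 and 0.020 against 0.16 and 0.13 for proximal ones, and after MCM6 depletion (right) distal medians lie above proximal ones on both chromosomes at 3 to 5 and 6 to 10 genes and below them over 20 genes.

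Promoter ISs had the lowest medians of all contexts after RIF1 loss, in proximal as in distal parts. The median was -0.20 over 99 distal and -0.095 over 63 proximal promoter ISs of chromosome 4, and -0.17 over 106 and -0.14 over 71 on chromosome 5. Intergenic ISs had medians of -0.036 and -0.053 in the distal parts and 0.079 and 0.059 in the proximal parts. Leaving promoter ISs out gave differences of -0.13 and -0.11 between the parts, as large as with them.

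Few single ISs passed the 1.5-fold threshold of the study. Over the whole table, 2.27% of ISs were over 1.5-fold higher in Rif1KO and 2.7% over 1.5-fold lower, and on the autosomes other than 4, 5, 10, 15 and 16 the shares were 0.975% and 1.30%. In the distal parts 30 ISs of chromosome 4 and 23 of chromosome 5 were lower, while 3 and 4 were higher. In the proximal parts 6 and 16 were lower and 13 and 16 higher. The lower share of all distal ISs was 2.38% (1.82 to 3.10) against 0.911% (0.603 to 1.38) of proximal ISs. The higher share was 0.314% (0.152 to 0.647) against 1.201% (0.838 to 1.72). Over ISs called in both conditions, distal minus proximal was 0.3813 percentage points for lower and 0.07057 for higher ISs, where the sign of the latter turned. Since fold changes chose the division, nothing further is read from these shares. The 53 lower distal ISs had a median GC content of 57.1% and 15 were promoter ISs (28.3%), against 52.4% and 8.76% of the distal ISs that passed in neither direction. Among the 53, 15.1% had been called in both conditions. Among distal ISs that passed in neither direction 64.9% had been. Ranked over the whole table, 29.1% of distal ISs and 13.7% of proximal ISs fell into the lowest 20% of fold changes.

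The lowest fold changes after RIF1 loss lay at or near GC-rich gene starts in 3 of the 4 parts. On chromosome 5 distal the lowest, among ISs at or above the median density, was an IS 1.25 kb from the TSS of Gm10419 (chr5:108796774-108797624, 64.8% GC), which went from 220 to 122 reads, a log2 fold change of -1.003 ± 0.163. On chromosome 4 distal it overlapped the start of Dmbx1, a homeobox gene of the developing brain (chr4:115612166-115612750, 66.2% GC), with 99 and 62 reads (-0.83 ± 0.23). On chromosome 5 proximal it overlapped the start of Hnrnpd, which encodes an mRNA-binding protein (chr5:100407636-100408092, 70.7% GC), with 96 and 64 reads (-0.74 ± 0.23). That IS also overlapped a coding exon and the gene 4930524J08Rik. The lowest of chromosome 4 proximal was instead intergenic, near the start of the sequenced chromosome and without the G-run motif (chr4:3010402-3010976), with 140 and 101 reads (-0.62 ± 0.19). The highest by the same density limit were intergenic in all 4 parts, with 62 and 103 reads on chromosome 4 proximal (0.58 ± 0.23), 71 and 117 near Gm12830 on chromosome 4 distal (0.57 ± 0.22), 71 and 122 on chromosome 5 proximal (0.63 ± 0.22) and 90 and 156 near Micall2 on chromosome 5 distal (0.64 ± 0.19). The most used ISs changed little. The Lck IS (chr4:129229433-129230874) had 537 reads in WT and 593 in Rif1KO (-0.0097 ± 0.086), the IS at the start of Dcun1d4, a cullin neddylation gene (chr5:73882338-73883479), 594 and 621 (-0.089 ± 0.083), the most used distal IS of chromosome 5 (chr5:111987752-111988849) 675 and 762 (0.022 ± 0.076) and that of chromosome 4 proximal (chr4:3090515-3092236) 465 and 495 (-0.063 ± 0.093).

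The number of called ISs differed between WT and Rif1KO mainly on the proximal side. The WT list held 547 ISs in chromosome 4 proximal and the Rif1KO list 908, a ratio of 1.66. In chromosome 5 proximal they held 824 and 1230, a ratio of 1.49. In the distal parts the lists were almost equal in size, with 860 and 878 on chromosome 4 (1.02) and 951 and 960 on chromosome 5 (1.01). The whole lists had a ratio of 1.30. ISs per Mb were 3.08-fold denser in the distal than the proximal part of chromosome 4 in WT (2.76 to 3.43) and 1.89-fold in Rif1KO (1.72 to 2.08). On chromosome 5 the values were 2.78-fold (2.53 to 3.05) and 1.88-fold (1.73 to 2.05). In the hairpin lists, which came from 21071351 and 23602750 reads in ISs against 3350255 in WT and 3724571 in Rif1KO, the ratio was 1.19 and 1.06 on chromosome 4 and 1.47 and 1.42 on chromosome 5, for Rif1KO_shLacZ and Rif1KO_shMcm6. Depth and the distance used to join peaks into clusters differed between lists, and their part in these ratios was not tested.

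**Figure D4:**
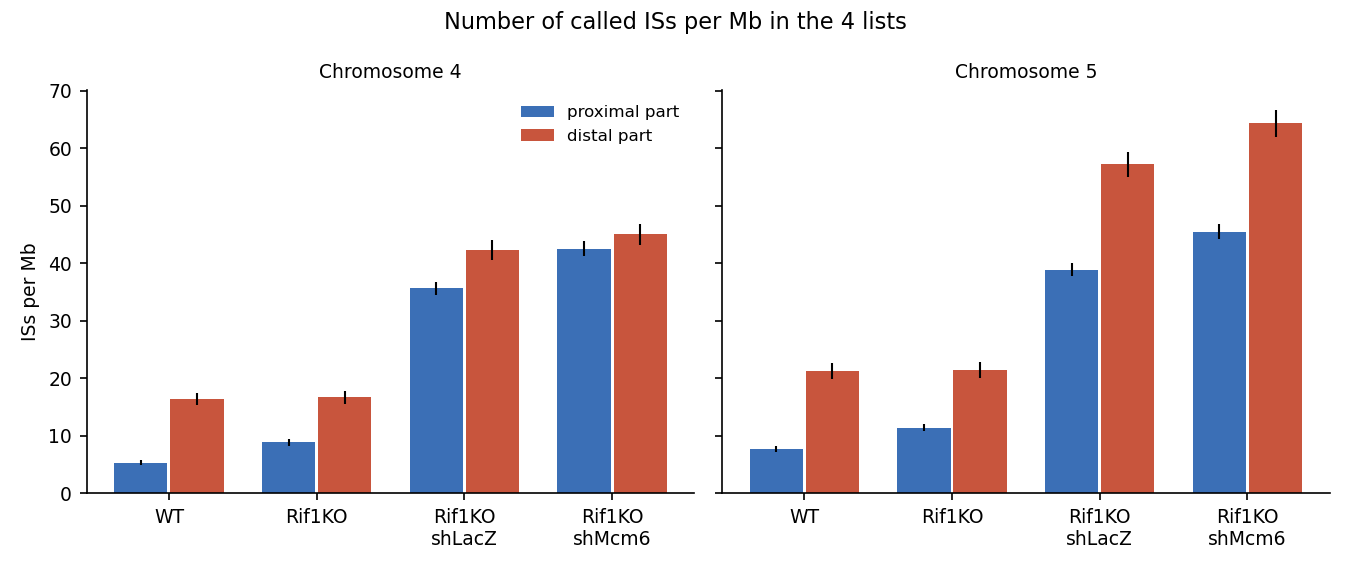
Called ISs per Mb of chromosome (y axis) in the 4 lists (x axis) for the proximal and distal parts, with 95% counting intervals. In WT the distal part of chromosome 4 held 16.3 ISs per Mb and the proximal part 5.31, in Rif1KO 16.7 and 8.82, and the hairpin lists are denser throughout.

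WT counterparts of Rif1KO ISs differed in share between the parts, as the sizes of the lists given above did. The share is bounded by these sizes and is not read as a separate result. An overlap of at least 1 bp with a WT IS was found for 48.4% of those in chromosome 4 proximal (45.1 to 51.6) and 53.1% of those in chromosome 5 proximal (50.3 to 55.9), against 75.3% (72.3 to 78.0) and 79.1% (76.4 to 81.5) in the distal parts and 60.3% in the whole list. In the other direction the parts were alike, with 80.4%, 79.4%, 76.5% and 79.9% of WT ISs overlapping a Rif1KO IS in chromosome 4 proximal, 5 proximal, 4 distal and 5 distal. Median GC content of the listed ISs fell from 46.0% to 44.2% in chromosome 4 proximal and from 46.9% to 45.2% in chromosome 5 proximal, and from 53.3% to 52.5% and 53.3% to 52.6% in the distal parts. In the merged table, ISs called in Rif1KO only were 46.3% of chromosome 4 proximal and 41.2% of chromosome 5 proximal, and 20.2% and 17.5% of the distal parts, beside 34.1% of the whole table. Their median fold changes were 0.17 and 0.16 in the proximal and 0.10 and 0.12 in the distal parts, and a value above 0 follows from a call in Rif1KO alone.

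Depletion of MCM6 in RIF1-deficient cells gave medians of the same sign order with a smaller difference. The median log2 fold change, Rif1KO_shMcm6 minus Rif1KO_shLacZ, was -0.063 in chromosome 4 distal (-0.073 to -0.049), 0.016 in chromosome 4 proximal (0.0049 to 0.026), -0.027 in chromosome 5 distal (-0.038 to -0.014) and 0.0090 in chromosome 5 proximal (-0.00054 to 0.017), beside -0.011 in the whole table. Distal minus proximal was -0.079 on chromosome 4 (-0.093 to -0.061) and -0.036 on chromosome 5 (-0.049 to -0.020). Over medians of 1 Mb windows, which group neighbouring ISs, it was -0.073 on chromosome 4 (-0.13 to -0.025) and -0.039 on chromosome 5, where the interval took in 0 (-0.12 to 0.029). The sign of the difference varied with the trends removed. With the GC trend removed it was -0.024 on chromosome 4 (-0.038 to -0.0081) and 0.010 on chromosome 5 (-0.0044 to 0.026). With the gene number trend also removed it was 0.013 (-0.0015 to 0.031) and 0.032 (0.019 to 0.050). Within the 5 gene-number classes, distal minus proximal was below 0 in 3 on chromosome 4 and in 1 on chromosome 5.

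Along the chromosomes the bins of the hairpin comparison were less ordered. Below 0 were 9 of 11 distal bins of chromosome 4 and 8 of 9 of chromosome 5, but also 7 of 20 and 10 of 21 proximal bins. The lowest bin of chromosome 4 was again 30 to 35 Mb distal of the division (-0.20 over 217 ISs, -0.23 to -0.13). On chromosome 5 the lowest lay on the proximal side, 70 to 75 Mb from the division (-0.13 over 225 ISs), a stretch with a median of -0.054 after RIF1 loss as well. The 10 nearest ISs to the division of chromosome 4 had medians of -0.13 on the distal and -0.011 on the proximal side, and those of chromosome 5 had 0.044 and -0.12, the opposite order.

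After MCM6 depletion more ISs were over 1.5-fold higher than lower in all 4 parts. Over the whole table, 4.8% of ISs were over 1.5-fold higher and 1.51% over 1.5-fold lower. Higher ISs numbered 258 (5.22%) and 289 (5.30%) in the proximal parts and 111 (4.09%) and 197 (6.20%) in the distal parts of chromosomes 4 and 5. Lower ISs numbered 56 in each proximal part (1.13% and 1.03%), 81 in chromosome 4 distal (2.98%, 2.41 to 3.69) and 53 in chromosome 5 distal (1.67%, 1.28 to 2.18). Chromosome 4 distal thus held the most lower ISs and the smallest share of higher ones, whereas the higher share of chromosome 5 distal was the largest of the 4. Higher ISs had a median density of 2.01 log2 RPM in Rif1KO_shLacZ in the distal parts and 1.77 in the proximal parts, and lower ISs 2.63 and 2.52, under the medians of 2.86 and 2.66 of all ISs there. The G-run motif was in 64.0% of the higher distal and 66.5% of the higher proximal ISs, and in 59.0% and 61.6% of the lower ISs, against 76.6% and 79.4% of those that passed in neither direction. The other autosomes gave 64.8%, 61.0% and 78.2% for higher, lower and neither.

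Among ISs at or above the median density, those with the highest fold changes after MCM6 depletion were intronic or intergenic. In an intron of Sema3d, which encodes a secreted axon guidance protein, a proximal IS of chromosome 5 (chr5:12480767-12481828) went from 170 to 842 reads, a log2 fold change of 2.15 ± 0.12. An intergenic distal IS of chromosome 5, 233 kb from Med13l, a Mediator subunit gene (chr5:119243738-119244664), went from 177 to 751 reads (1.92 ± 0.12). Both had 1 protein-coding gene within 500 kb and no match to the motif. On chromosome 4 the highest were intergenic at chr4:70297935-70299324 in the proximal part, with 105 and 355 reads (1.59 ± 0.16), and in an intron of the transcription activator gene Camta1 (chr4:150945535-150946338) in the distal part, with 136 and 306 reads (1.01 ± 0.15). The lowest were a proximal intergenic IS of chromosome 4 (chr4:45565112-45565945) with 267 and 191 reads (-0.65 ± 0.14), a distal intergenic IS of chromosome 4 near Laptm5, a lysosomal membrane protein gene of blood cells (chr4:130431617-130432529), with 229 and 119 reads (-1.11 ± 0.16), and ISs over the starts of Fam101a (194 and 118 reads, -0.88 ± 0.17) in chromosome 5 distal and of the meiotic helicase gene Hfm1 (221 and 137 reads, -0.85 ± 0.16) in chromosome 5 proximal. The single Lck IS of the hairpin table went from 996 to 770 reads (-0.54 ± 0.069), short of the 1.5-fold threshold.

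In both tables, ISs with exactly 1 overlapping IS in the other numbered 832 and 856 in chromosome 4 proximal and distal and 1093 and 993 in the parts of chromosome 5. Spearman's correlation of their fold changes between the comparisons was 0.068 to 0.086 within the parts and 0.13 on the other autosomes. In this overlapping set the median after MCM6 depletion was below 0 in the proximal parts too (-0.069 and -0.071), beside -0.13 and -0.12 in the distal parts.

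Long genes, many of them neuronal adhesion or channel genes, had ISs in the Rif1KO and WT table in 21 of 23 cases. The share of all protein-coding genes with an IS was not computed, so the numbers of genes with ISs in this and the other lists are not read as high or low. For each gene the reads of all ISs in it or within 1 kb of it were summed. After RIF1 loss the summed reads of 14 of the 14 proximal genes with ISs were above 0, with a median of 0.10. Those of 5 of 7 distal genes were below 0, with a median of -0.020. Among all proximal ISs with 0 to 2 genes within 500 kb the medians were 0.16 and 0.13 on chromosomes 4 and 5. The proximal count is therefore not read as particular to long genes. By the median of each gene's ISs the counts were 11 of 14 proximal genes above 0 and 3 of 7 distal genes below 0, so the sign of the distal majority depended on the measure. Among the proximal genes, with counting errors, were Lphn3 (121 and 156 reads, 0.21 ± 0.17), Lingo2 (723 and 931, 0.21 ± 0.072), Kcnip4, a potassium channel-interacting protein gene (745 and 944, 0.19 ± 0.071), and Ptprd, a receptor phosphatase gene (771 and 967, 0.17 ± 0.070). The distal genes Dab1 (571 and 626 reads, -0.020 ± 0.083), Csmd2 (1632 and 1737, -0.063 ± 0.050) and Camta1 (2730 and 2929, -0.051 ± 0.038) lay near 0 and Kazn (180 and 157, -0.35 ± 0.16) lowest, whereas Auts2 (770 and 905, 0.080 ± 0.071) was above 0. Many of the single values are within 2 counting errors of 0.

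After MCM6 depletion all 23 long genes were above 0 by summed reads and 22 by the median of their ISs, with summed-read medians of 0.14 over 16 proximal and 0.086 over 7 distal genes. Among all proximal ISs with 0 to 2 genes within 500 kb the medians were 0.084 and 0.096 on chromosomes 4 and 5, so the count is not read as particular to long genes. Ptprd, with 122 ISs, went from 14568 to 18533 reads (0.18 ± 0.016), and Agbl4, a distal gene with 74 ISs, from 11472 to 12982 (0.015 ± 0.018). The highest gene, Sema3d (911 and 1768 reads, 0.79 ± 0.059), held the intronic IS named above, and the median of its 7 ISs was 0.24. In these genes, 39 proximal ISs of 548 (7.12%) and 14 distal ISs of 266 (5.26%) were over 1.5-fold higher, beside 4.8% of the whole table, and 1 (0.182%) and 5 (1.88%) over 1.5-fold lower, beside 1.51%.

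**Figure D5:**
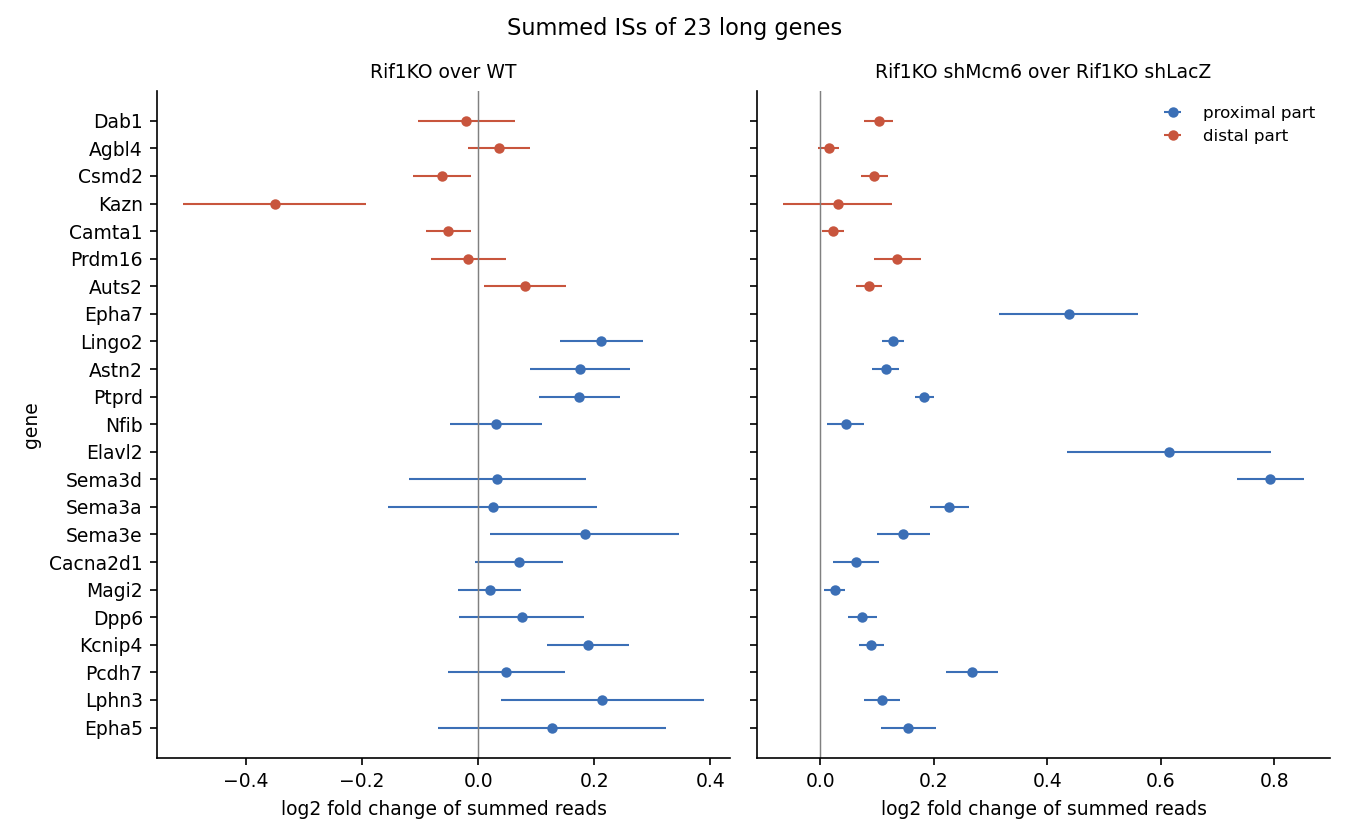
Log2 fold change of the summed reads of all ISs of each long gene (x axis) for 23 genes (y axis), after RIF1 loss (left) and MCM6 depletion (right), with bars of 1 counting SE. After RIF1 loss the summed reads of the 14 proximal genes with ISs lie above 0 and those of 5 of the 7 distal genes below it. By the median of a gene's ISs the counts are 11 of 14 and 3 of 7. After MCM6 depletion all 23 genes lie above 0 by summed reads, with Sema3d highest at 0.79. These counts are not read as particular to long genes.

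Of 18 replication and repair genes, 13 of them distal, 3 had an IS in the Rif1KO and WT table. These were Rfc1, the large subunit of the clamp loader (69 and 77 reads, 0.0055 ± 0.24), the polymerase gene Pole (95 and 107, 0.019 ± 0.20) and Rfc3 (59 and 65, -0.013 ± 0.26), none of them changed beyond counting error. No IS of either table lay in Mcm7, Orc1, Cdc7 or Brca2. Pole went from 469 to 577 reads over 3 ISs after MCM6 depletion (0.14 ± 0.090).

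Of 20 B cell and lymphocyte genes found in the annotation, 8 had ISs in the Rif1KO and WT table. After RIF1 loss 7 of these were below 0, 3 of 3 proximal and 4 of 5 distal genes, with a median of -0.077. Over all ISs the medians were 0.057 and 0.040 in the proximal and -0.072 and -0.068 in the distal parts. None of the 8 gene values exceeded 2 counting errors, so the count is not read as particular to these genes. In Rhoh, a blood cell GTPase gene of chromosome 5 proximal, 227 and 223 reads were counted over 3 ISs (-0.18 ± 0.14). Kdm2b, a histone demethylase gene, had 147 and 134 (-0.29 ± 0.17), and Hvcn1, a proton channel gene, was the one above 0 (63 and 79, 0.17 ± 0.24). In the hairpin table, ISs were found for 17, with 11 below 0 after MCM6 depletion and a median of -0.044. Over all ISs the medians were -0.063 and -0.027 in the distal and 0.016 and 0.0090 in the proximal parts. Among ISs with exactly 1 overlapping IS in the other table, 61.7% to 71.4% were below 0 in the 4 parts. The count is therefore not read as particular to these genes. Rhoh went from 1102 to 997 reads (-0.31 ± 0.063) and Cd52 from 233 to 204 (-0.36 ± 0.14), while Cd72, a B cell surface receptor gene, went from 140 to 216 (0.46 ± 0.16). Among 10 housekeeping genes, 3 had ISs in the Rif1KO and WT table. Hdac1 (119 and 93 reads, -0.51 ± 0.20) and Mtor (60 and 45, -0.57 ± 0.28), both in chromosome 4 distal, had 1 IS each. Clock (152 and 189, 0.16 ± 0.16), in chromosome 5 proximal, had 2. After MCM6 depletion 5 of the 10 had ISs, 2 below 0 and 3 above, with Hdac1 at 0.029 ± 0.10 and Mtor at 0.31 ± 0.13.

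Gene families in tandem arrays varied in ISs on both sides. The 1842 kb of the Mup array, 21 urinary protein genes of chromosome 4 proximal, held 2 ISs in the Rif1KO and WT table, or 1.09 per Mb, and 11 in the hairpin table. By contrast, the Gbp array of interferon-induced GTPases in chromosome 5 proximal held 7 ISs in 329.8 kb, or 21.2 per Mb, with a median of -0.024 after RIF1 loss. The Skint array of chromosome 4 distal, 11 genes of epidermal T cell selection over 2326 kb, held 15 ISs with a median of 0.12, above 0 inside the distal part. The distal Padi genes, of protein citrullination (3 ISs, -0.12), and Oas genes, of antiviral response (3 ISs, -0.11), were below 0, while the distal Cyp4a (2 ISs, 0.35) and Cyp3a arrays (2 ISs, 0.11), of fatty acid and drug oxidation, were above it. After MCM6 depletion the median was -0.094 over 23 ISs of Padi and 0.035 over 61 of Skint.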

How the data were processed

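SNS-seq libraries of CH12 cells were prepared from asynchronous cultures, and the replicates came from separately thawed vials. The authors trimmed reads with Trim Galore 0.6.4 and cutadapt 2.6, aligned them to mm9 with Bowtie 1.2.3 keeping unique alignments, called peaks with no input, clustered the consensus peaks of each condition, kept peaks inside clusters and merged the peak sets of each comparison with bedtools, per the methods and the submitters' processing notes. Unique alignment leaves out reads that map to several places, and the cluster filter removes isolated sites. The deposited values were log2 RPM, 1 pooled value per IS and condition, and the deposited IS lists held positions with no signal. On the linear scale 100% of values were whole multiples of 1 read (tolerance 0.01), which gave the pooled reads. Other deposited columns gave a category of fold change, not used here, and the number of merged peaks.

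ISs were placed by their centre with Python 3.11.15, pandas 2.3.3, numpy 2.4.6 and scipy 1.17.1, and annotated with the NCBIM37 sequence and GENCODE vM1, with 22380 protein-coding genes. The members, division and gene lists were chosen with earlier results of these data known. Fold changes were treated minus control log2 RPM. Shares carry 95% Wilson intervals, medians order-statistic intervals, and single ISs the counting SE of their reads. Overlap meant 1 bp or more. Named ISs were the lowest and highest fold change per part among ISs at or above the median density, the most used in WT and the nearest to the division. The scripts were tested on simulated reads. The alternatives were density filters, log2(RPM + 1), ISs called in both conditions, divisions moved by 5 Mb, no promoter ISs, trends on GC content and gene number removed, window medians, other thresholds and other lengths.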

Additional observations from a re-analysis of the deposited data

How the results depend on the processing

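Of 110 alternatives, 76 lay within the 95% interval of the reported value, 28 lay outside it and 6 reversed the sign of a value whose interval left out 0, and 41 of 44 alternatives of the fold changes between the parts stayed below 0. The cause was not tested for any of them. After RIF1 loss, the distal minus proximal fold change was -0.08536 on chromosome 4 and -0.05397 on chromosome 5 over ISs called in both conditions, -0.05623 and -0.04044 with the GC trend removed, and -0.08562 on chromosome 5 over ISs at or above the lower quartile of density. Removing the trends on GC content and gene number, and keeping ISs with 6 or more genes within 500 kb, were added after seeing the data. They gave -0.02191 and -0.1096 on chromosome 4 and -0.02185 and -0.07925 on chromosome 5. After MCM6 depletion the corresponding values were -0.02398 on chromosome 4 and 0.01014 on chromosome 5 with the GC trend removed, 0.01349 and 0.03224 with both trends removed, and -0.02448 and -0.001753 over ISs with 6 or more genes. The share of ISs lower after RIF1 loss, distal minus proximal, was 1.467 percentage points, and 0.1416 at a 2-fold threshold, 8.543 at a log2 threshold of 0.32 and 0.3813 over ISs called in both. The higher share was -0.8871, and 0.04488, -9.707 and 0.07057 under the same settings, with -0.1301 at or above the lower quartile of density. After MCM6 depletion the lower share was 1.197, and -0.01642, 5.482 and 0.6611 in the same order, and the higher share was -0.03421 with an interval on both sides of 0 (-0.7343 to 0.6925), and -1.87 at 0.32, 1.073 over ISs called in both, 0.6861 at or above the lower quartile of density, and 0.2953 and 0.09111 with the division moved towards the centromere and the distal end, so its sign was not settled. The difference in promoter share in the hairpin table was 3.799, and 2.652 within 0.5 kb and 6.024 within 2 kb of a TSS. Per kb of IS the difference in density was 0.1602 in WT, 0.03761 in Rif1KO, 0.1201 in Rif1KO_shLacZ and 0.07372 in Rif1KO_shMcm6, and over ISs called in both it was 0.2331 in Rif1KO_shLacZ.

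No paired analysis was possible because each deposited density pools the replicates of its condition. Leaving out a replicate was not run for that reason. With medians of 66 to 87 reads per IS and condition in the Rif1KO and WT table, the median counting error of a fold change (0.22 to 0.24) was close to the spread of fold changes (SD 0.24 to 0.25), so shifts of the reported size were not detectable at single ISs.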
